A study of Arabidopsis thaliana with 6 samples.

Results

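MIF_3 is a set of transgenic Arabidopsis thaliana seedlings, compared here with wild-type (WT) seedlings of the same accession, Col-0. Its 2 RNA-seq libraries were set against the 2 WT libraries, which makes 4 of the 6 libraries of the series, and the members were chosen by the sample labels alone. MIF_3 plants carried the construct pTA7002-Dexp:Myc-MIF, in which a promoter switched on by dexamethasone drives a Myc-tagged MIF protein. WT plants carried no construct by their label. Every library, WT included, came from whole seedlings kept for 7 days on medium with 10 µM dexamethasone and 1% sucrose, after 3 days of cold in the dark. Light was white and lasted 16 h a day, with an intensity of 120 µmol m-2 s-1. The temperature was 21 °C by day and 19 °C by night. The other 2 libraries come from MIF_1, a set with the same genotype label, and are used here for a direct comparison with MIF_3 and in the estimate of the spread. The series title places the study in the study of MORF2, a plastid RNA editing factor, and an F-box protein that controls it, in seed germination and in plastid signalling.

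Several limits belong to this design. No library of a plant with an empty vector and none from medium without dexamethasone is among the 6 libraries, so the construct, its insertion and the induced protein cannot be told apart. What the number in the name MIF_3 stands for, whether it marks an independent line, and whether replicates are separate cultures are points on which the sources used here are silent. The p-values below therefore measure the spread between these samples, which may be technical. The locus of MIF is not named in the sources used here, so the induced transcript was not analysed here.

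F-box proteins are the part of SCF ubiquitin ligases that selects a target protein for breakdown by the proteasome. MORF proteins work with pentatricopeptide repeat proteins to change single cytidines to uridines in organellar RNA, and MORF2 acts in plastids. The state of the plastid is relayed to the nucleus by retrograde signalling, in which GUN1, tetrapyrrole intermediates and the GLK transcription factors take part, and nuclear photosynthesis genes are its classical readout. In germinating seeds the hormone abscisic acid holds growth back, through receptors of the PYR/PYL family that inhibit clade A protein phosphatases.

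The MIF_3 libraries held 24175475 and 24698636 counts and the WT libraries 21404582 and 18262579. WT replicate 2 had more plastid and ribosomal RNA than the other libraries, with 0.132% of counts from plastid loci against 0.0203% to 0.0273% elsewhere, and 1.04% from nuclear rRNA loci against 0.298% to 0.468%. The MIF_3 replicates were further apart than the MIF_1 replicates. Of 12426 genes with a mean of at least 10 CPM (counts scaled by library size), 106 (0.853%) differed at least 2-fold between the MIF_3 replicates, against 85 (0.684%) between the WT replicates and 2 (0.0161%) between the MIF_1 replicates. The tissue label was checked against markers. Root markers summed to 192 and 179 CPM in MIF_3, against 211 and 174 CPM in WT, and shoot meristem markers to 105 and 102 CPM in MIF_3, against 96.8 and 104 CPM in WT. Mesophyll and leaf markers summed to 31296 and 36358 CPM in MIF_3, against 43959.8 and 45369.9 CPM in WT, with 6 of 7 lower. Stomatal lineage genes summed to 155.6 and 160.5 CPM in MIF_3, against 209.5 and 197.7 CPM in WT. Of 14 tested, 2 were lower, 0 were higher and 12 did not pass, with a median log2 fold change of -0.42. Of 7 shoot meristem markers 0 passed in edgeR and 0 in DESeq2, 0 had an unadjusted p below 0.05, and of 15 root markers CASP1, of the endodermis, was higher (0.64 ± 0.18, 0.0469), a call that ended without each library other than WT replicate 1 (0.0521 to 0.220). The 6 leaf markers lower became 0 without either of WT replicate 1 and WT replicate 2 and 2 with only the 4 libraries fitted. WUS, a shoot meristem marker, had 0 counts in every library. In whole seedlings, fewer cells of a type and less RNA per cell cannot be told apart.

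Of 20438 genes tested with edgeR's quasi-likelihood test, 1194 (5.84%) were higher and 1526 (7.47%) were lower in MIF_3 seedlings than in WT at a Benjamini-Hochberg adjusted p below 0.05. Each p given below is that adjusted p unless another is named, each ± on a log2 fold change is its standard error, and n is 2 libraries a group. At least 2-fold changes made up 550 (2.69%) of the higher genes and 499 (2.44%) of the lower ones, as shares of all genes tested. The median log2 fold change over all genes was 0.01, with quartiles of -0.23 and 0.26. The MIF_3 and WT libraries did not overlap for 11622 genes (56.9%), so a lack of overlap by itself says little about a gene. The largest increases and decreases named below were also picked among genes without overlap. The number of genes passing depended on single libraries. It was 669 higher and 937 lower without WT replicate 1. Leaving out WT replicate 2 gave 737 and 838. It was 695 and 989 without MIF_3 replicate 1, and 1105 and 1330 without MIF_3 replicate 2. Without MIF_1 replicate 1, which enters this test through the estimate of the spread alone, it was 786 and 1135, and with the 4 compared libraries alone 784 and 1138.

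**Figure D1:**
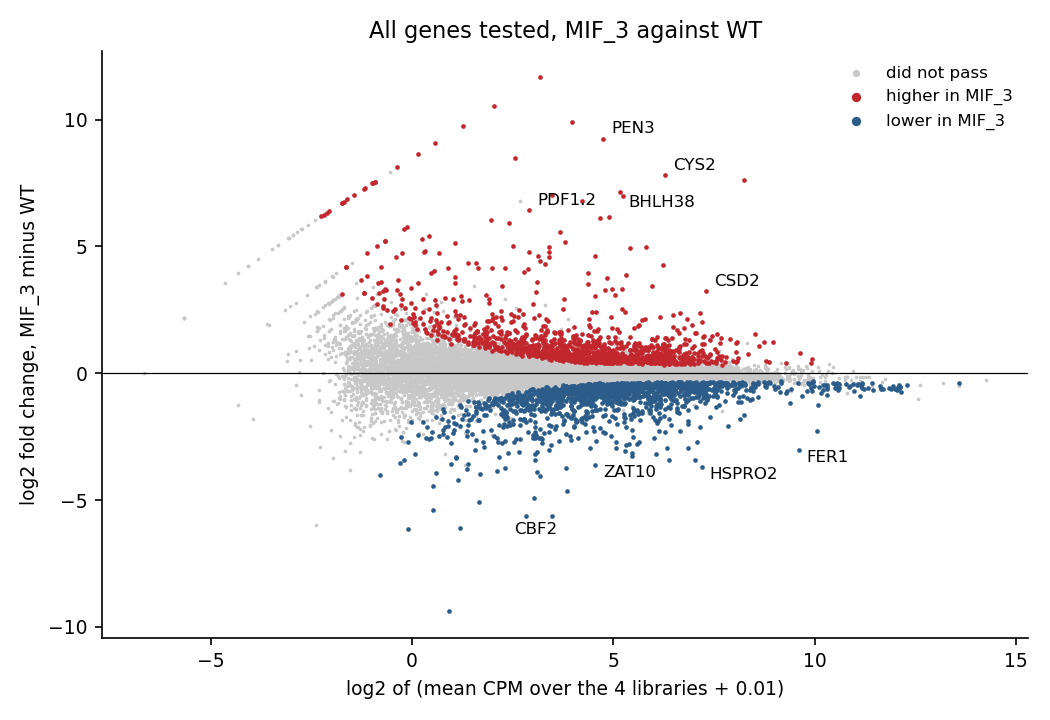
Log2 fold change of MIF_3 over WT (y axis) against log2 of the mean CPM over the 4 libraries plus 0.01 (x axis) for each of 20438 genes. Coloured points passed the test at an adjusted p below 0.05, 1194 higher and 1526 lower in MIF_3, and grey points did not; labelled genes are described in the text.

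The genes with the largest increases in MIF_3 were close to silent in WT. CYS2 (AT2G31980), a phytocystatin that inhibits cysteine proteases, had 181 and 128 CPM in MIF_3 seedlings, against 0.853 and 0.482 CPM in WT. It rose by 7.81 ± 0.26 on the log2 scale (4.71e-07). A nearby locus, AT2G31970, overlaps CYS2, and without strand information reads from the pair cannot be told apart. AT2G05510, which codes for a glycine-rich protein, had 584 and 612 CPM in MIF_3 seedlings, against 3.06 and 2.95 CPM in WT, a rise of 7.63 ± 0.15 (1.14e-08). In both genes each MIF_3 library was more than 100 times as high as each WT library.

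A pair of seed storage genes was among the largest increases, with unequal MIF_3 replicates, while most of their list did not pass. The list of seed storage and embryo genes has 21 members, and 7 were tested, of which 2 were higher (SESA5 and SESA2), 1 was lower (ATML1, an epidermal factor) and 4 did not pass, with a median of -0.45. The number lower was 0 without either of WT replicate 1 and WT replicate 2, and the median was 0.35 without WT replicate 1. The 2S albumin gene SESA5 (AT5G54740) had 13.3 and 3.06 CPM in MIF_3 and 0 counts in both WT libraries. Against the limit of 3 counts that a count of 0 over the WT group allows, it was at least 100-fold higher. SESA2 (AT4G27150), another 2S albumin, had 34.8 and 9.11 CPM in MIF_3 seedlings, against 0.201 and 0.121 CPM in WT, a rise of 7.02 ± 0.83 (0.000681). AT1G07373, a non-coding RNA locus in the reference, was at least 221-fold higher, with 32.3 and 3.75 CPM in MIF_3 and 0 counts in WT. AT4G36700, a cupin family gene, had 52.9 and 9.75 CPM in MIF_3 and 0.0502 and 0 CPM in WT, and the ratio of its pooled counts was 1151 (95% exact interval 206 to 45504, counting error only). MIF_3 replicate 1 was the higher one for SESA5, SESA2, AT1G07373 and AT4G36700. SESA genes resemble each other closely, so their reads may have been shared out between copies.

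Several other genes were near 0 in WT. PEN3 (AT5G36150), which codes for a triterpene synthase, had 67.5 and 39.0 CPM in MIF_3, against 0.150 and 0 CPM in WT, a ratio of pooled counts of 650.1 (222 to 3154). LURP1, named for its response to an oomycete pathogen, had 14.8 and 8.46 CPM in MIF_3, against 0.0502 and 0 CPM in WT, a ratio of 426 (76.2 to 16855). PDF1.2 (AT5G44420), a plant defensin of the jasmonate and ethylene branch, had 9.08 and 20.4 CPM in MIF_3 seedlings, against 0.0502 and 0.301 CPM in WT and rose by 6.43 ± 0.62 (0.000212). The MIF_3 libraries were above the WT libraries for these 3 genes, with replicate 2 the higher for PDF1.2 and replicate 1 for the other 2.

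Abundant transcripts rose by less. EXT4 (AT1G76930), a cell wall extensin, had 596 and 486 CPM in MIF_3 seedlings, against 167 and 206 CPM in WT, a rise of 1.54 ± 0.13 (0.000109). AT2G45180, a lipid transfer family gene, had 728 and 683 CPM in MIF_3 seedlings, against 288 and 309 CPM in WT, a rise of 1.24 ± 0.10 (9.14e-05). MTO3 (AT3G17390), which codes for a methionine adenosyltransferase and overlaps 2 other loci, had 1138 and 863 CPM in MIF_3 seedlings, against 527 and 618 CPM in WT, a rise of 0.81 ± 0.14 (0.00456). The replicates of each group lay together for these genes, and the groups did not overlap. TT4 (AT5G13930), chalcone synthase, had 1107 and 1064 CPM in MIF_3 seedlings, against 834 and 819.7 CPM in WT, a rise of 0.39 ± 0.09 (0.0154) that ended without WT replicate 1 (0.0911) or WT replicate 2 (0.115).

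Genes of several kinds were among the largest decreases. NAP (AT1G69490), a NAC factor that promotes leaf senescence, had 0.355 and 0.524 CPM in MIF_3 seedlings, against 22 and 21.6 CPM in WT, and fell by 5.62 ± 0.39 log2 units (3.02e-05). PUB19 (AT1G60190), a U-box ubiquitin ligase that restrains abscisic acid and drought responses, had 1.38 and 0.765 CPM in MIF_3 seedlings, against 19.8 and 35.1 CPM in WT, and fell by 4.66 ± 0.35 (5.2e-05). WRKY70 (AT3G56400), a factor of salicylic acid defence, had 2.09 and 1.81 CPM in MIF_3 seedlings, against 20.12 and 32.9 CPM in WT, and fell by 3.75 ± 0.26 (3.5e-05). WT levels of these genes were above those of MIF_3 in both replicates, which was a condition for choosing the largest decreases. RTFL12 (AT4G13395), a small peptide of the ROTUNDIFOLIA family, had 0.158 and 0.202 CPM in MIF_3 seedlings, against 4.71 and 7.66 CPM in WT, and fell by 5.06 ± 0.44 (0.000117). HSPRO2 (AT2G40000), a gene of basal resistance to bacteria, had 21.8 and 20.0 CPM in MIF_3 seedlings, against 214 and 328 CPM in WT, and fell by 3.69 ± 0.19 (7.05e-06). ERF13 (AT2G44840), an ethylene response factor, had 0.553 and 0.524 CPM in MIF_3 seedlings, against 5.52 and 10.5 CPM in WT, and fell by 3.87 ± 0.45 (0.000577). The locus with the largest fall among those without a name, AT4G27657, had 0.711 and 1.33 CPM in MIF_3 seedlings, against 14.2 and 20.0 CPM in WT, and fell by 4.06 ± 0.30 (4.58e-05).

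Genes that plants switch on within minutes of touch, cold or wounding formed the group with the largest median fall among the nuclear gene lists. The lists were chosen with earlier results of these data known, so this rank is not independent of that choice. Of 23 ZAT zinc fingers, rapid ERF factors and other early stress genes tested, 14 were lower, 0 were higher and 9 did not pass, with a median log2 fold change of -1.25 against 0.01 over all genes. ERF105 is also on that list and had 0 counts in every library. ZAT10 (AT1G27730), a C2H2 zinc finger repressor induced by many stresses, had 3.40 and 3.63 CPM in MIF_3, 41.8 and 46.5 CPM in MIF_1 and 35.6 and 50.1 CPM in WT. It fell by 3.61 ± 0.19 against WT (7.05e-06), and both MIF_3 libraries lay far below the other 4. ERF104 (AT5G61600), an ethylene response factor of innate immunity, had 9.04 and 9.03 CPM in MIF_3, 39.1 and 40.9 CPM in MIF_1 and 44.9 and 45 CPM in WT, and fell by 2.31 ± 0.11 against WT (6.08e-06). ERF5 (AT5G47230), another ethylene response factor, had 4.74 and 4.31 CPM in MIF_3, 13.0 and 12.1 CPM in MIF_1 and 21.1 and 26.5 CPM in WT, and fell by 2.39 ± 0.17 (4e-05). For RRTF1 the MIF_3 libraries held 0.0395 and 0.0806 CPM and the WT libraries 1.5 and 7.54 CPM, so the WT replicates were themselves far apart.

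These factors also separated MIF_3 from MIF_1 when that difference was tested directly. In MIF_1 against WT, 1598 genes (7.82%) were higher and 2014 (9.85%) lower. Over all genes 97 (0.475%) were higher and 263 (1.29%) lower in MIF_3 than in MIF_1, and 9 of the 23 rapid genes were lower. ZAT10 was -3.65 ± 0.19 relative to MIF_1 (5.22e-05), ERF104 -2.15 ± 0.11 (5.22e-05) and ERF5 -1.47 ± 0.17 (0.0039). The other 6 were ZAT6 (-1.27, 0.0158), ZF2 (-1.35, 0.0328), ERF6 (-1.87, 0.0244), ERF11 (-2.63, 0.0188), the calmodulin-like CML24 (-1.32, 0.0355) and the ubiquitin ligase gene PUB23 (-1.02, 0.0188). MIF_1 and MIF_3 share the WT libraries as their control. In MIF_1 against WT, ZAT10 had a log2 fold change of 0.05 (0.88) and ERF104 -0.17 (0.314). The number lower against MIF_1 was 2 without MIF_1 replicate 1 and 3 without MIF_1 replicate 2. ZAT10 and ERF104 passed under each of the 14 alternatives tried, and ERF5 failed only without MIF_1 replicate 1 (0.0916). The other 6 failed without MIF_1 replicate 1 (0.136 to 0.321) and without MIF_1 replicate 2 (0.106 to 0.233), ZF2 also without MIF_3 replicate 1 (0.0891) and CML24 with the replicate block (0.0537).

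**Figure D2:**
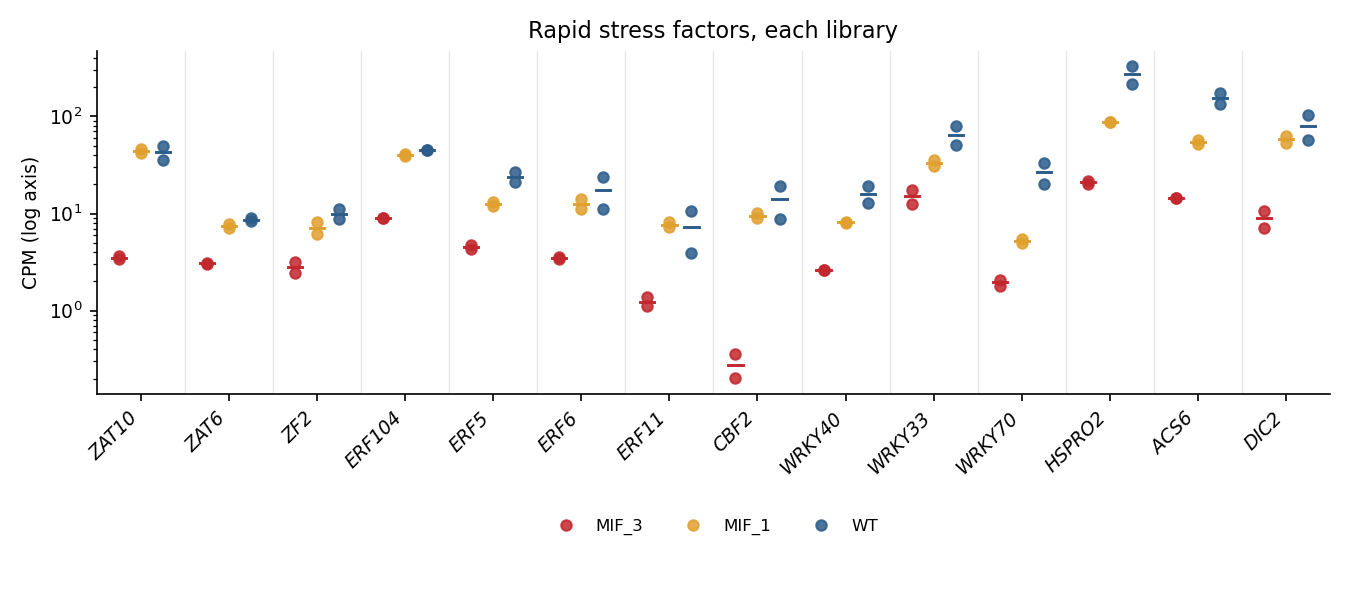
CPM on a log axis for rapid stress genes in each library, MIF_3 left, MIF_1 next and WT right; points are libraries and bars are group means. ZAT10 lies at 3.40 and 3.63 CPM in MIF_3, against 35.6 and 50.1 CPM in WT, while MIF_1 lies at 41.8 and 46.5 CPM.

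The CBF cold regulators were also low in MIF_3. CBF2 (AT4G25470), a master regulator of cold acclimation, had 0.355 and 0.202 CPM in MIF_3, 10.0 and 9.05 CPM in MIF_1 and 8.83 and 19.3 CPM in WT. It fell by 5.62 ± 0.47 against WT (9.79e-05) and was -5.07 ± 0.48 relative to MIF_1 (0.00138). CBF1 (AT4G25490), its neighbouring paralog, had 0 counts in both MIF_3 libraries, 1.3 and 1.33 CPM in MIF_1, and 1.71 and 5.79 CPM in WT. Against the limit that a count of 0 allows it was at least 59.5-fold lower than in WT. Of 13 CBF regulon genes tested, 6 were lower and 0 higher, with a median of -0.81, and the number lower was 3 without WT replicate 2. ZAT12 and RD29A are also on other lists here. COR413IM1 (AT1G29395), which codes for a cold-induced protein of the chloroplast envelope, had 1.54 and 2.42 CPM in MIF_3 seedlings, against 6.37 and 10.3 CPM in WT, and fell by 2.07 ± 0.34 (0.00409). COR15A, which protects chloroplasts during freezing, did not pass (25.9 and 27.4 CPM in MIF_3 and 14.6 and 17.36 CPM in WT, 0.74 ± 0.24, 0.0701). The cold-induced gene KIN1 (AT5G15960) had 24.7 and 27.8 CPM in MIF_3, 5.25 and 8.81 CPM in MIF_1 and 24.7 and 16.8 CPM in WT; it did not pass against WT (0.397) and was 1.90 ± 0.25 relative to MIF_1 (0.00546), a call that ended without MIF_1 replicate 1 (0.1).

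WRKY factors of defence moved in both directions. Of 18 salicylic acid and WRKY genes, 5 were lower than in WT, all of them WRKY genes, and 2 were higher, WRKY18 and PR2, a number that was 1 without any one of WT replicate 1, MIF_1 replicate 1 or 2 and MIF_3 replicate 2 or with only the 4 libraries fitted, so that the list median was -0.01. WRKY33 (AT2G38470), a regulator of camalexin synthesis, had 12.4 and 17.57 CPM in MIF_3, 35.5 and 30.5 CPM in MIF_1 and 50.3 and 79.5 CPM in WT, and fell by 2.11 ± 0.23 (0.000401). WRKY40 (AT1G80840), a repressor in abscisic acid and defence responses, had 2.65 and 2.62 CPM in MIF_3, 8.02 and 8.27 CPM in MIF_1 and 12.9 and 19.2 CPM in WT, and fell by 2.6 ± 0.23 (0.000132). WRKY18 (AT4G31800), its close homolog, had 40.9 and 26.1 CPM in MIF_3, 50.1 and 40.8 CPM in MIF_1 and 5.57 and 13.7 CPM in WT and rose by 1.82 ± 0.34 (0.0078). So close homologs moved in opposite directions in MIF_3, and the MIF_3 and WT libraries did not overlap in either. Against MIF_1, 7 of the genes were lower, among them WRKY70 (-1.42, 0.0345), WRKY46 (-2.13, 0.0211), WRKY40 (-1.63, 0.00912), WRKY33 (-1.14, 0.0384) and WRKY53 (-1.38, 0.0382). The other 2 were PR1, a pathogenesis-related protein (-3.75, 0.00365), and PBS3, an enzyme of salicylic acid synthesis (-2.18, 0.0139). PR1 had 1.54 and 1.41 CPM in MIF_3, 16.4 and 23.3 CPM in MIF_1 and 0 and 0.603 CPM in WT, so it was high in MIF_1 and under 2 CPM in the MIF_3 and WT libraries. These 7 differences from MIF_1 ended without MIF_1 replicate 1 (0.0864 to 0.342) and without MIF_1 replicate 2 (0.101 to 0.253). Those of WRKY33, WRKY46, WRKY53 and WRKY70 ended also without MIF_3 replicate 1 (0.0525 to 0.0940), those of WRKY53 and WRKY70 without MIF_3 replicate 2 (0.0533 and 0.0843), and that of PR1 in DESeq2 (0.127).

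ACS6 and DIC2, which act outside transcription control, were lower than in both other groups. ACS6 (AT4G11280), an enzyme that makes the ethylene precursor and is stabilized by stress kinases, had 14.4 and 14.3 CPM in MIF_3, 57.1 and 51.8 CPM in MIF_1 and 134 and 174 CPM in WT. It fell by 3.41 ± 0.15 against WT (3.19e-06) and was -1.92 ± 0.14 relative to MIF_1 (0.000331). DIC2 (AT4G24570), a mitochondrial dicarboxylate carrier, had 10.7 and 7.17 CPM in MIF_3, 63.4 and 53.6 CPM in MIF_1 and 56.6 and 103 CPM in WT, and fell by 3.15 ± 0.28 against WT (0.000138) and was -2.71 ± 0.28 relative to MIF_1 (0.00218). ACS6 passed both tests under each alternative, and the MIF_1 difference of DIC2 ended without MIF_1 replicate 1 (0.0726).

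Promoters of 5 genes described here are shown because each holds the G-box CACGTG, whose shares are given after them. The G-box is the core bound by bZIP factors of abscisic acid response and by bHLH factors of light signalling, and its inner ACGTG is the core of abscisic acid response elements. Each sequence is the 250 bases before the annotated start of the gene, written 5′ to 3′ on the gene's strand, from the RefSeq copy of TAIR10.1, with ACGTG on either strand and CACGTG in capitals. PUB19 (chr1:22198016-22198265, plus strand), PP2CA (chr3:3585851-3586100, minus strand) and PRR9 (chr2:19232357-19232606, plus strand) were lower in MIF_3, and CYS2 (chr2:13609956-13610205, minus strand) and BHLH38 (chr3:21085246-21085495, minus strand) were higher.
PUB19: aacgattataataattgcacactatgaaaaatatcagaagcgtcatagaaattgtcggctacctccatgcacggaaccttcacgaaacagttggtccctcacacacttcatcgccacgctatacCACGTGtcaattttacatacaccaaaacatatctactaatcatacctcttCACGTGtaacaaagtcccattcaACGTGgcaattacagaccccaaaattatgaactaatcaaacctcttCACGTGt
PP2CA: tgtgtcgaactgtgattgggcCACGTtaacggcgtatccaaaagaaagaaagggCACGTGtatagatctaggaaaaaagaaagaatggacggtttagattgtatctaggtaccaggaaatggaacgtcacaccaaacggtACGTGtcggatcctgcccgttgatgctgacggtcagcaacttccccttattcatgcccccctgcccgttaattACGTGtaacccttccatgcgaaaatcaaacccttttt
PRR9: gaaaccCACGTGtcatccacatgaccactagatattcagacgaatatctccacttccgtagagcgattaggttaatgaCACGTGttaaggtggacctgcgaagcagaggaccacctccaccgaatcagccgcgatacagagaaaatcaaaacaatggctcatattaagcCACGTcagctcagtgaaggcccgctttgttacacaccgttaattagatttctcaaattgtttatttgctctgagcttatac
CYS2: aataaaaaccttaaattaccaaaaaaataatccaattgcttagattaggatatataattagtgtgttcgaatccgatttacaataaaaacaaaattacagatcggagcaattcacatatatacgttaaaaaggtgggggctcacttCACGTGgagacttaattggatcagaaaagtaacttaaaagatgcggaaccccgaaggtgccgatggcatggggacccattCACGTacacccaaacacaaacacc
BHLH38: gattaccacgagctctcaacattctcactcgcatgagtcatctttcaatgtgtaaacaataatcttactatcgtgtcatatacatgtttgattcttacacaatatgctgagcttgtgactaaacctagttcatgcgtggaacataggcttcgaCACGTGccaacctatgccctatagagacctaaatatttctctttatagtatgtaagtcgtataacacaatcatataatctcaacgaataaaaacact
CACGTG reads the same on both strands and holds ACGTG on each, so every CACGTG match is also 2 ACGTG matches. CACGTG was present 3 times in the PUB19 promoter, 2 times in that of PRR9 and once in each of the other 3.

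CACGTG was found in 14.5% of promoters of genes at least 2-fold lower and in 11.4% of all lower genes, against 7.33% of the 20387 promoters available for tested genes. Among higher genes the share was 6.03%, and 7.82% of those at least 2-fold higher. ACGTG, on either strand, was found in 35.5% of promoters of genes at least 2-fold lower, 32% of those at least 2-fold higher and 23.8% of all. The drought and cold element core CCGAC was found in 12.5%, 12.5% and 12.8% of the same sets, and the W-box core TTGAC of WRKY factors in 244 of 488 promoters of the lower set, 54.9% of the higher set and 45.2% of all. The evening element AAATATCT was found in 7.38% of promoters of genes at least 2-fold lower, 4.91% of those at least 2-fold higher and 4.91% of all. The I-box core GATAAG was found in 17.8%, 12.4% and 12.3% of these sets, and the heat shock element core GAANNTTC in 11.5%, 10.7% and 9.25%. So the share over promoters of genes at least 2-fold lower was above that over all promoters for each motif searched other than CCGAC. Matches describe letters in these windows only, and no test was made of the shares.

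Abscisic acid signalling genes moved in opposite directions by role. Of 8 clade A phosphatases tested, which block the pathway, 6 were lower, with a median of -0.97, and of 9 PYR/PYL receptors 5 were higher, with a median of 0.47. HAI1 (AT5G59220), a phosphatase induced by the hormone, had 4.70 and 4.51 CPM in MIF_3 seedlings, against 19.6 and 19.2 CPM in WT, and fell by 2.07 ± 0.17 (9.14e-05). PP2CA (AT3G11410), a phosphatase that acts on SnRK2 kinases in seeds, had 43.0 and 41.5 CPM in MIF_3 seedlings, against 95.5 and 132 CPM in WT, and fell by 1.43 ± 0.15 (0.000298). ABI1 (AT4G26080), known from an insensitive mutant, had 35.4 and 41.1 CPM in MIF_3 seedlings, against 81.0 and 75.7 CPM in WT, and fell by 1.03 ± 0.11 (0.000401). WT was above MIF_3 in both replicates for these phosphatases, HAB1 included (-0.91 ± 0.13, 0.00165). Among receptors, PYL4 (AT2G38310) had 131 and 123 CPM in MIF_3 seedlings, against 45.5 and 51.4 CPM in WT, a rise of 1.39 ± 0.11 (8.43e-05). PYL6 (AT2G40330) had 15.6 and 19.3 CPM in MIF_3 seedlings, against 4.71 and 6.69 CPM in WT, a rise of 1.62 ± 0.19 (0.000668), and PYL5 (AT5G05440) had 69.9 and 55.0 CPM in MIF_3 seedlings, against 18.4 and 28.2 CPM in WT, a rise of 1.43 ± 0.19 (0.00141). These receptors were higher in both MIF_3 libraries, and the number of receptors higher was 3 without WT replicate 1. PYR1 (AT4G17870), the receptor found through the synthetic agonist pyrabactin, had 99.3 and 102 CPM in MIF_3 seedlings, against 64.6 and 73.0 CPM in WT, a rise of 0.55 ± 0.11 (0.00808) that ended without WT replicate 1 (0.0666).

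The synthesis enzymes NCED3 and ABA1 were lower, and those of breakdown divided. NCED3 (AT3G14440), which makes the committed cleavage of carotenoids under drought, had 2.01 and 1.53 CPM in MIF_3 seedlings, against 12.3 and 18.7 CPM in WT, and fell by 3.12 ± 0.35 (0.000473). ABA1 (AT5G67030), zeaxanthin epoxidase, had 551 and 514 CPM in MIF_3 seedlings, against 798 and 864 CPM in WT, and fell by 0.64 ± 0.09 (0.00225). Of the 8'-hydroxylases that inactivate the hormone, CYP707A1 (AT4G19230) had 23.2 and 21.3 CPM in MIF_3 seedlings, against 6.17 and 7.42 CPM in WT, a rise of 1.72 ± 0.15 (0.000138). CYP707A3 (AT5G45340) had 7.97 and 6.77 CPM in MIF_3 seedlings, against 16.1 and 35.6 CPM in WT, and fell by 1.80 ± 0.31 (0.00518), and CYP707A2, which acts in seeds, fell by 1.92 ± 0.28 (0.00219). So paralogs of that enzyme moved in opposite directions, with groups that did not overlap.

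Of 19 response factors and target genes, 9 were lower, 2 were higher (ABF1 and COR47) and 8 did not pass, with a median of -0.65. The number lower was 4 without WT replicate 2, and the number higher 0 without either of WT replicate 2 and MIF_3 replicate 1 and 1 without any one of WT replicate 1 and MIF_1 replicate 1 or 2 or with only the 4 libraries fitted. RD26 (AT4G27410), a NAC factor of dehydration response, had 8.09 and 10.3 CPM in MIF_3 seedlings, against 33.2 and 49.2 CPM in WT, and fell by 2.16 ± 0.21 (0.000204). HB-12 (AT3G61890), a homeodomain factor induced by the hormone, had 5.21 and 6.65 CPM in MIF_3 seedlings, against 21.4 and 21.7 CPM in WT, and fell by 1.86 ± 0.17 (0.000186), and its paralog ATHB-7 (AT2G46680) fell by 0.93 ± 0.13 (0.00196). COR47 (AT1G20440), a dehydrin, had 374 and 290.5 CPM in MIF_3 seedlings, against 215 and 220.0 CPM in WT, a rise of 0.61 ± 0.14 (0.0219) that ended without WT replicate 1 (0.1), WT replicate 2 (0.0877) or MIF_3 replicate 1 (0.091). Of the 8 phosphatases, 9 receptors and 9 metabolic genes tested against MIF_1, 0 passed in edgeR, 1, 2 and 6 had an unadjusted p below 0.05, and DESeq2 called 0, 0 and 1. Of the metabolic genes 1 was lower without either of WT replicate 1 and WT replicate 2, with only the 4 libraries fitted or with no filter.

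**Figure D3:**
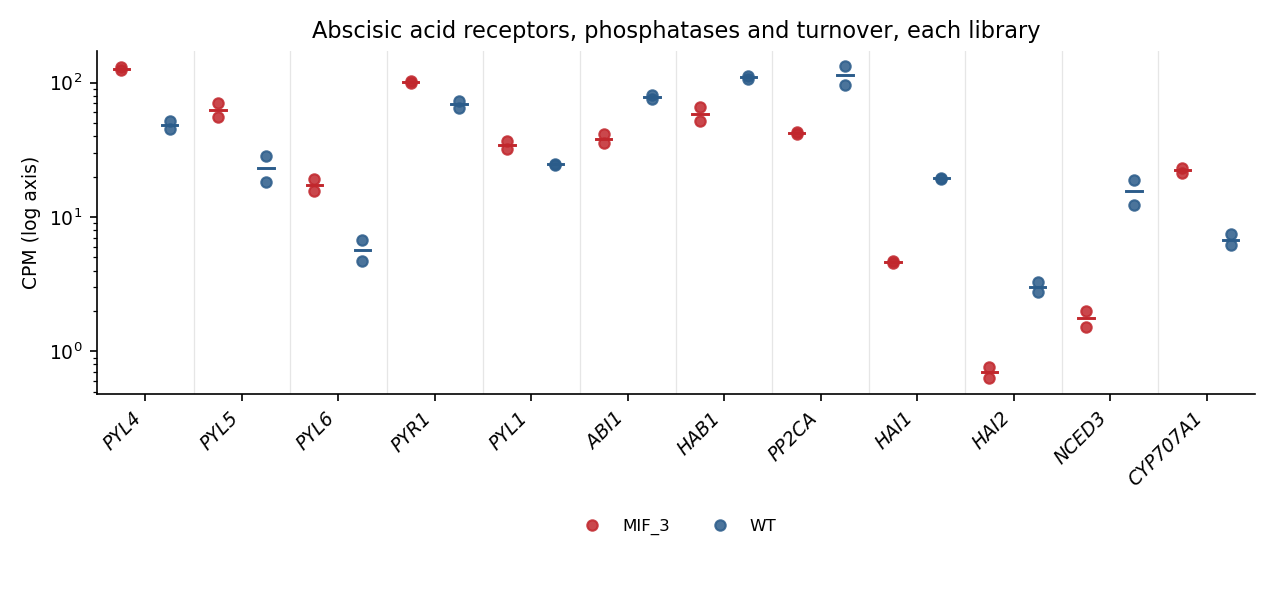
CPM on a log axis in each MIF_3 library (left) and each WT library (right) for abscisic acid receptors, phosphatases and metabolic enzymes; points are libraries and bars are group means. PYL4, PYL5 and PYL6 lie higher and HAI1, PP2CA and ABI1 lower in MIF_3, with no overlap.

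Several iron deficiency regulators were higher in MIF_3 than in WT, with MIF_3 replicates far apart. The bHLH factors of subgroup Ib, which activate iron uptake with FIT, were close to silent in WT. BHLH38 (AT3G56970) had 126 and 16.5 CPM in MIF_3, 56.5 and 56.4 CPM in MIF_1 and 0.401 and 0.603 CPM in WT, a rise of 7.16 ± 1.04 against WT (0.00214), and it overlaps AT3G56960. BHLH100 (AT2G41240) had 130.5 and 18.1 CPM in MIF_3, 53.2 and 59.9 CPM in MIF_1 and 0.201 and 1.02 CPM in WT, a rise of 6.99 ± 1.03 (0.00227). BHLH39 (AT3G56980) had 83.3 and 16.4 CPM in MIF_3, 35.8 and 38.2 CPM in MIF_1 and 0.401 and 1.08 CPM in WT, a rise of 6.11 ± 0.83 (0.00147). MIF_3 replicate 1 was several times as high as replicate 2 for each, the MIF_1 libraries lay between them, and all transgenic libraries were above WT. BHLH101 rose by 4.1 ± 0.79 (0.00898), a call that ended without WT replicate 1 (0.0705). Of 9 iron deficiency regulators 5 were higher and 0 lower, and the number higher was 3 without WT replicate 1. Against MIF_1, 0 of these regulators passed in edgeR and 0 in DESeq2, 0 had an unadjusted p below 0.05, and in edgeR 4 were lower without MIF_3 replicate 1 and 4 higher without MIF_3 replicate 2. These bHLH genes are close copies, so reads could be split among them.

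The ferritin genes FER1 and FER3 were lower, and other iron genes divided. FER1 (AT5G01600), a plastid ferritin that stores iron, had 95.4 and 248 CPM in MIF_3, 309 and 387 CPM in MIF_1 and 1367 and 1399.9 CPM in WT, and fell by 3.01 ± 0.35 against WT (0.000645). FER3 (AT3G56090) had 36.6 and 57.0 CPM in MIF_3 seedlings, against 127 and 118 CPM in WT, and fell by 1.39 ± 0.18 (0.00103). FRO7 (AT5G49740), a chloroplast ferric reductase, had 37.6 and 42.8 CPM in MIF_3 seedlings, against 96.3 and 107 CPM in WT, and fell by 1.34 ± 0.12 (0.000128). In these 3 genes both WT libraries were above both MIF_3 libraries. FRO3 (AT1G23020), a mitochondrial ferric reductase and marker of iron deficiency, had 227 and 69.9 CPM in MIF_3 seedlings, against 30.6 and 29.6 CPM in WT, a rise of 2.3 ± 0.42 (0.0067). F6'H1 (AT3G13610), an enzyme of coumarin synthesis, had 29.3 and 28.1 CPM in MIF_3, 52.9 and 57.3 CPM in MIF_1 and 16.6 and 9.53 CPM in WT, a rise of 1.13 ± 0.21 (0.00686). Relative to MIF_1, F6'H1 was lower (-0.94, 0.0445) and the leaf ferric reductase FRO6 was higher (0.90, 0.0188). FRO6 had 82.2 and 104 CPM in MIF_3, 48.4 and 51.2 CPM in MIF_1 and 157 and 204 CPM in WT. These differences ended without MIF_1 replicate 1 (0.262) or MIF_1 replicate 2 (0.164) for FRO6, and for F6'H1 without any 1 of the 4 transgenic libraries (0.0694 to 0.304), with the replicate block (0.0584), with upper-quartile factors (0.051) or with the stricter filter (0.0511). Over the uptake, transport and storage list 5 of 18 genes were higher and 6 lower. The number higher was 2 without any one of WT replicate 2, MIF_1 replicate 1 or 2 and MIF_3 replicate 1 or with only the 4 libraries fitted.

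Copper and iron superoxide dismutases moved in opposite directions. CSD2 (AT2G28190), the plastid copper/zinc enzyme, had 303 and 266 CPM in MIF_3, 144 and 139.5 CPM in MIF_1 and 30.9 and 29.5 CPM in WT, a rise of 3.24 ± 0.11 against WT (4.71e-07) and 1.00 ± 0.10 relative to MIF_1 (0.00202). CSD1 (AT1G08830), the cytosolic enzyme, had 253 and 219 CPM in MIF_3 seedlings, against 43.9 and 46.8 CPM in WT, a rise of 2.38 ± 0.11 (5.28e-06). CCS (AT1G12520), the chaperone that loads both with copper, had 106 and 75.5 CPM in MIF_3 seedlings, against 20.3 and 20.7 CPM in WT, a rise of 2.14 ± 0.16 (4.46e-05), and was 0.77 relative to MIF_1 (0.0358). All 3 were several times as high in each MIF_3 library as in each WT library. FSD1 (AT4G25100), the plastid iron enzyme, had 163 and 565 CPM in MIF_3 seedlings, against 1811 and 1689 CPM in WT, and fell by 2.27 ± 0.42 (0.0075), with MIF_3 replicates more than 3-fold apart. SPL7 (AT5G18830), the factor that activates copper deficiency genes, did not pass (47.4 and 48.2 CPM in MIF_3 and 46.0 and 51.6 CPM in WT, -0.03 ± 0.11, 0.897). CAT2 (AT4G35090), the main leaf catalase, had 1941 and 1852 CPM in MIF_3 seedlings, against 2822 and 2950.2 CPM in WT, and fell by 0.61 ± 0.09 (0.00197). The difference from MIF_1 ended without MIF_1 replicate 1 (0.0726) or MIF_1 replicate 2 (0.0504) for CSD2, and without MIF_1 replicate 1 (0.281), MIF_1 replicate 2 (0.251) or MIF_3 replicate 1 (0.0755) for CCS.

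**Figure D4:**
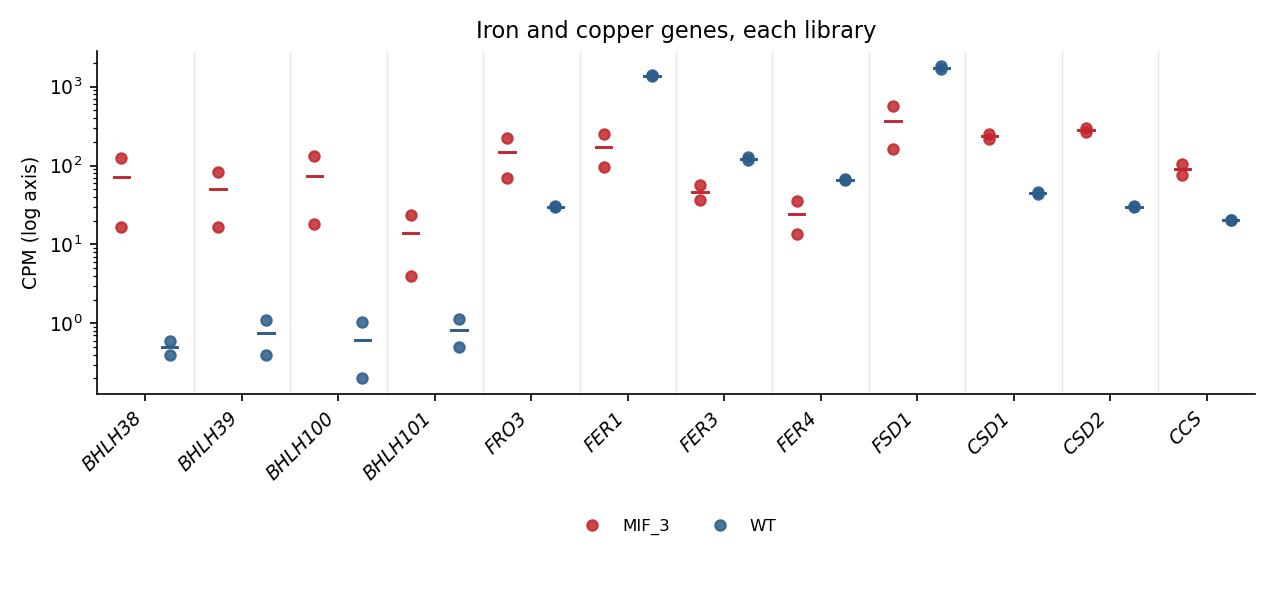
CPM on a log axis in each MIF_3 library (left) and each WT library (right) for iron and copper genes; points are libraries and bars are group means. The MIF_3 points of BHLH38 lie at 126 and 16.5 CPM and those of CSD2 at 303 and 266 CPM, against WT at 0.401 and 0.603 CPM and at 30.9 and 29.5 CPM.

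Many photosynthesis genes were lower, by small amounts. Of 19 light-harvesting genes tested, 13 were lower (median -0.54), as were 12 of 21 photosystem subunits (-0.47) and 12 of 23 electron transport and carbon fixation genes (-0.39). None was higher, and LHCB1.5 had 0 counts in every library. These counts depended on single libraries. For the light-harvesting list the number lower was 1 without either of WT replicate 1 and WT replicate 2, 3 with only the 4 libraries fitted and 4 without either of MIF_1 replicate 1 and MIF_1 replicate 2. For photosystem subunits it was 0 without WT replicate 2, 1 without WT replicate 1, 2 with only the 4 libraries fitted, 3 without either of MIF_1 replicate 1 and MIF_1 replicate 2 and 20 without MIF_3 replicate 2. For electron transport and carbon fixation it was 3 without either of WT replicate 1 and WT replicate 2, 4 with only the 4 libraries fitted and 7 without either of MIF_1 replicate 1 and MIF_1 replicate 2. The median of the light-harvesting list was -0.84 without MIF_3 replicate 2 and -0.34 without MIF_3 replicate 1, and all 19 genes tested had a log2 fold change below 0. The 7 leaf markers, 4 of which are on these lists, had a median of -0.51, and their part in these values was not tested.

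RBCS2B (AT5G38420), a RuBisCO small subunit with near-identical copies, had 3075 and 3392 CPM in MIF_3 seedlings, against 4903 and 5004 CPM in WT, and fell by 0.62 ± 0.09 (0.00214). GAPA (AT3G26650), a Calvin-Benson dehydrogenase, had 1888 and 2201 CPM in MIF_3 seedlings, against 3029 and 3069 CPM in WT, and fell by 0.58 ± 0.10 (0.00456). FBA1 (AT2G21330), a plastid aldolase, had 1675 and 1983 CPM in MIF_3 seedlings, against 2744 and 2772 CPM in WT, and fell by 0.59 ± 0.10 (0.00525). Both WT libraries were above both MIF_3 libraries for these genes, and their calls held under each alternative. LHCB4.2 (AT3G08940), a minor antenna protein, had 1287 and 1748 CPM in MIF_3 seedlings, against 2416 and 2598 CPM in WT, and fell by 0.72 ± 0.13 (0.00736), a call that ended without WT replicate 2 (0.0512). Between MIF_3 and MIF_1, 0 light-harvesting genes passed in edgeR, 19 had an unadjusted p below 0.05 and 6 were higher in MIF_3 in DESeq2, and the list median in that contrast was 0.46. In edgeR 17 were higher without MIF_3 replicate 1, 1 without MIF_3 replicate 2 and 4 with no filter. Of photosystem subunits 1 was higher than in MIF_1, and 20 were higher without MIF_3 replicate 1. Of electron transport and carbon fixation genes 0 passed in edgeR and 4 in DESeq2, 9 had an unadjusted p below 0.05, and 9 were higher without MIF_3 replicate 1. Among photosystem subunits 14 had an unadjusted p below 0.05 against MIF_1, and DESeq2 called 9. The edgeR call was PSAL (0.62, 0.0445), which ended with only the 4 libraries fitted (0.0759), upper-quartile factors (0.051) or the stricter filter (0.0577). The PSAL call ended also without any one of MIF_1 replicate 1 or 2 and WT replicate 1 or 2. Its log2 fold change lay between 0.39 and 0.81 over all settings. Against WT, the early light-induced proteins ELIP1 and ELIP2, which bind free chlorophyll under stress, went the other way. Of 10 photoprotection genes tested these 2 were higher and 2 were lower, SEP2 and LIL3:2, with a median of -0.13. ELIP1 (AT3G22840) had 231 and 154 CPM in MIF_3 seedlings, against 103 and 102 CPM in WT, a rise of 0.91 ± 0.17 (0.00679), and ELIP2 (AT4G14690) had 265 and 159 CPM in MIF_3 seedlings, against 89.9 and 98.7 CPM in WT, a rise of 1.17 ± 0.20 (0.00437).

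Among 26 tetrapyrrole synthesis genes 9 were lower and none higher (median -0.27). HEMA1 (AT1G58290), glutamyl-tRNA reductase, had 283 and 537 CPM in MIF_3 seedlings, against 903 and 938 CPM in WT, and fell by 1.17 ± 0.23 (0.00952). GUN5 (AT5G13630), the H subunit of magnesium chelatase, had 2959 and 3485 CPM in MIF_3 seedlings, against 5071 and 5226 CPM in WT, and fell by 0.68 ± 0.10 (0.00261). CAO (AT1G44446), which makes chlorophyll b, had 216 and 262 CPM in MIF_3 seedlings, against 378 and 389.9 CPM in WT, and fell by 0.68 ± 0.11 (0.00382). The MIF_3 replicates of HEMA1 were almost 2-fold apart, and all MIF_3 values of the 3 genes lay below WT. The number lower was 3 without WT replicate 2, 4 without either of WT replicate 1 and MIF_3 replicate 1 and 5 with only the 4 libraries fitted.

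Of 12 regulators of chloroplast development and plastid signals 4 were lower, and of 16 sigma factor and plastid RNA polymerase genes 4. The regulator count was 2 without WT replicate 2. The sigma factor and polymerase count was 1 without any one of WT replicate 1 or 2 and MIF_1 replicate 1 or 2 or with only the 4 libraries fitted and 2 without MIF_3 replicate 1. GLK1 (AT2G20570), which activates chlorophyll and antenna genes, had 47.6 and 54.4 CPM in MIF_3 seedlings, against 136 and 143 CPM in WT, and fell by 1.45 ± 0.12 (0.000102), and GLK2 (AT5G44190) had 98.1 and 99.8 CPM in MIF_3 seedlings, against 147 and 184 CPM in WT, and fell by 0.74 ± 0.12 (0.00352). SIG5 (AT5G24120), a plastid sigma factor induced by light and stress, had 27.3 and 25.1 CPM in MIF_3, 34.7 and 33.6 CPM in MIF_1 and 129 and 132 CPM in WT, and fell by 2.31 ± 0.10 (4.33e-06). The groups did not overlap, and SIG5 was low in both transgenic sets. GUN1 (AT2G31400) did not pass (369.8 and 353 CPM in MIF_3 and 445 and 442 CPM in WT, -0.30 ± 0.10, 0.0769).

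**Figure D5:**
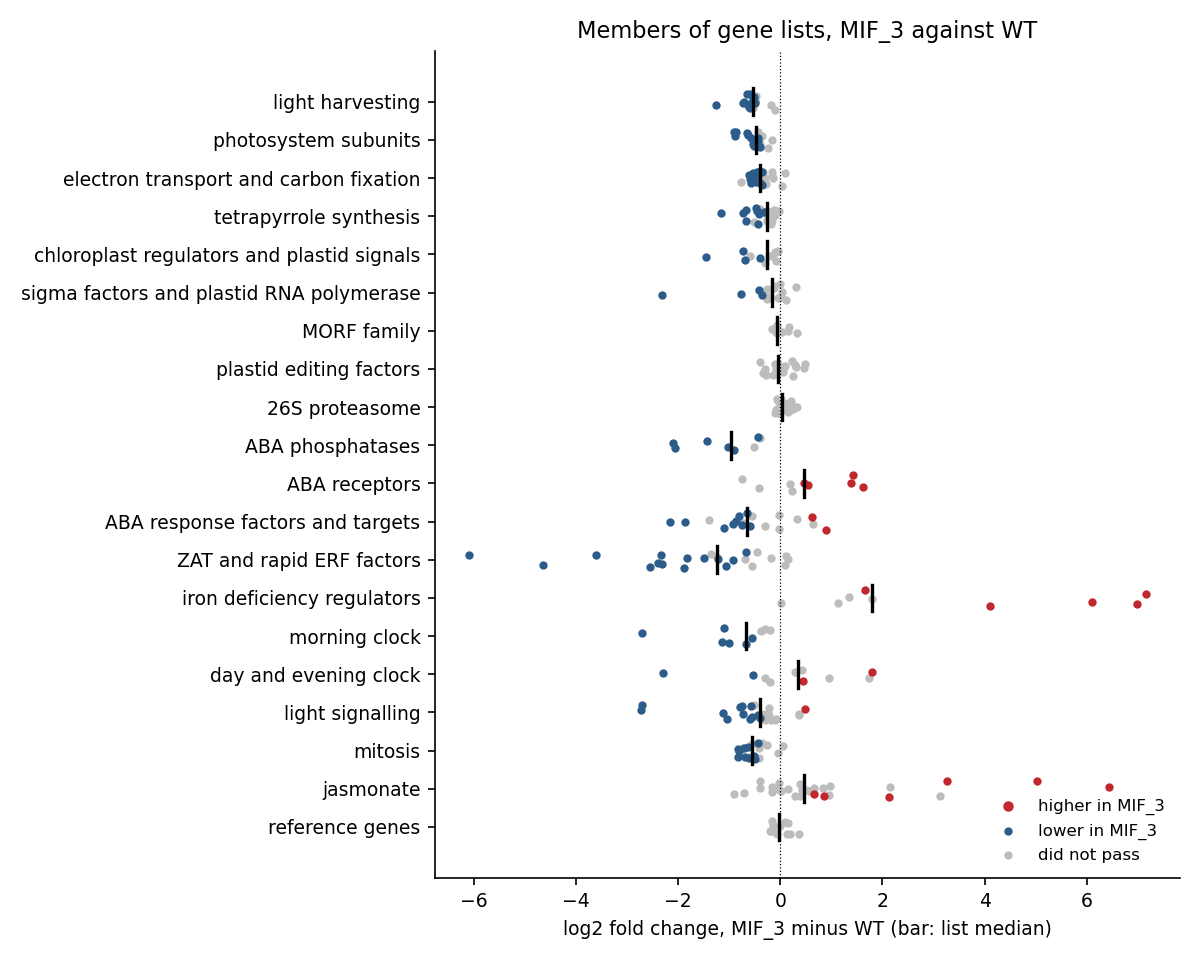
Log2 fold change of MIF_3 over WT for the genes of selected lists; each point is a gene, red (higher) or blue (lower) where it passed the test and grey where it did not, bars are list medians and the dotted line marks 0. The rapid stress genes, with a median of -1.25, lie lowest, and the MORF family, with a median of -0.06, lies around 0.

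No MORF, plastid editing or proteasome gene tested passed in edgeR. Of 9 MORF genes, 20 plastid editing factors and 20 proteasome subunits tested, 0 passed in edgeR and 0, 1 and 1 in DESeq2, while 0, 3 and 1 had an unadjusted p below 0.05, with medians of -0.06, -0.05 and 0.04. AT2G33430, the locus taken for MORF2, for which the reference used here has no record, had 92.4 and 96.8 CPM in MIF_3 seedlings, against 103 and 98.4 CPM in WT. Its log2 fold change was -0.09 ± 0.10 (0.585). Of 175 tested loci whose product name holds F-box, 4 were higher and 11 lower, shares below those over all genes, at 5.84% and 7.47%. The number lower was 6 without either of WT replicate 1 and MIF_3 replicate 1. The number higher was 0 without either of WT replicate 1 and MIF_3 replicate 2, 1 without either of MIF_1 replicate 1 and MIF_1 replicate 2 or with only the 4 libraries fitted and 2 without either of WT replicate 2 and MIF_3 replicate 1. AT1G23390 had 73.3 and 82.9 CPM in MIF_3, against 230.0 and 288 CPM in WT, and fell by 1.73 ± 0.14 (8.43e-05). SKP2A (AT1G21410), an F-box protein of cell cycle control, had 16.8 and 14.2 CPM in MIF_3, against 26.7 and 30.4 CPM in WT, and fell by 0.88 ± 0.14 (0.00285). The auxin receptor gene TIR1 fell by 0.44 ± 0.10 (0.0165) and its paralog AFB3 by 0.52 ± 0.11 (0.011). The call of TIR1 ended without WT replicate 2 (log2 fold change -0.38), MIF_3 replicate 1 (-0.46) or MIF_3 replicate 2 (-0.42).

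Morning genes of the circadian clock were lower. Of 9 morning clock genes, 6 were lower and 0 higher (median -0.67). CCA1 (AT2G46830), a MYB factor of the central loop, had 106 and 75.5 CPM in MIF_3 seedlings, against 199.7 and 189.9 CPM in WT, and fell by 1.1 ± 0.16 (0.00227), whereas its partner LHY did not pass (127 and 83.9 CPM in MIF_3 and 139 and 135 CPM in WT, 0.18). RVE1 (AT5G17300), a related MYB factor that raises auxin levels by day, had 9.40 and 8.34 CPM in MIF_3, 21.0 and 14.3 CPM in MIF_1 and 58.9 and 57.8 CPM in WT, and fell by 2.72 ± 0.18 (2.43e-05), and was lower than in MIF_1 as well (-0.99, 0.0253), a call that ended without MIF_1 replicate 1 (0.201) or MIF_3 replicate 2 (0.0663). LNK1 (AT5G64170), a coactivator with these MYB factors, had 72.6 and 67.0 CPM in MIF_3 seedlings, against 156 and 152 CPM in WT, and fell by 1.14 ± 0.11 (0.000185). The MIF_3 and WT libraries of CCA1, RVE1 and LNK1 did not overlap. PRR9 (AT2G46790), a morning pseudo-response regulator, had 5.80 and 7.86 CPM in MIF_3 seedlings, against 38.1 and 28.9 CPM in WT, and fell by 2.3 ± 0.24 (0.000358). It had the largest fall on the day and evening clock list, where genes moved in both directions. Of 10 tested there, 2 were higher, 2 were lower and 6 did not pass, with a median of 0.35. The higher genes were ELF4 and TOC1. Both calls ended with only the 4 libraries fitted (0.0533 and 0.0724) and with the replicate block (0.0566 and 0.0627). That of TOC1 ended in DESeq2 too (0.0605). Leaving out any one library other than MIF_1 replicate 1 ended the call of ELF4, and any other than MIF_3 replicate 2 that of TOC1. CDF1 (AT5G62430), a repressor of flowering genes, had 11.5 and 13.4 CPM in MIF_3 seedlings, against 32.1 and 35.3 CPM in WT, and fell by 1.44 ± 0.13 (0.000163). The time of harvest is not given in the labels, and all 6 libraries share the growth protocol.

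The light signalling genes that were lower included activators and repressors of light responses. Of 25 tested, 12 were lower and 1 was higher, PHYA, and 12 did not pass (median -0.40). The number lower was 7 without MIF_3 replicate 2, and the call of PHYA ended without WT replicate 1 (0.095). BBX32 (AT3G21150), a B-box factor that weakens light responses, had 1.07 and 1.37 CPM in MIF_3 seedlings, against 9.78 and 6.51 CPM in WT, and fell by 2.74 ± 0.31 (0.000577), and BBX31 (AT3G21890) had 0.632 and 1.17 CPM in MIF_3 seedlings, against 7.72 and 4.1 CPM in WT, and fell by 2.72 ± 0.44 (0.00381). SPA4 (AT1G53090), a partner of the COP1 ubiquitin ligase, had 19.3 and 18.7 CPM in MIF_3 seedlings, against 41.5 and 41.9 CPM in WT, and fell by 1.13 ± 0.12 (0.000306). The values of BBX31 and BBX32 were near 1 CPM in MIF_3. HY5 (AT5G11260), the bZIP factor that promotes seedling greening, had 11.7 and 9.63 CPM in MIF_3 seedlings, against 19.7 and 16.3 CPM in WT, and fell by 0.76 ± 0.16 (0.0135), a call that ended without WT replicate 1 (0.0882) or MIF_3 replicate 2 (0.0654). Its homolog HYH (AT3G17609) had 23.0 and 20.6 CPM in MIF_3, 39.5 and 38.3 CPM in MIF_1 and 30.1 and 28.4 CPM in WT and was lower than in MIF_1 (-0.84, 0.00711), a call that ended without MIF_1 replicate 1 (0.114) or MIF_1 replicate 2 (0.0778). Against WT it fell by 0.43 ± 0.11 (0.0369), a call that ended under 8 of the 14 alternatives, each left-out library among them, with adjusted p between 0.0572 and 0.180.

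Jasmonate output separated the MIF_3 replicates more than it separated MIF_3 from WT. Over the whole list the summed level was 984 and 2799 CPM in MIF_3, against 1281 and 1405 CPM in WT. VSP2 (AT5G24770), a vegetative storage protein induced by wounding, had 11.3 and 169 CPM in MIF_3 seedlings, against 44.0 and 48.2 CPM in WT. Replicate 1 lay below both WT libraries and replicate 2 above them. LOX2 (AT3G45140), a lipoxygenase of jasmonate synthesis, had 259.8 and 1033 CPM in MIF_3 seedlings, against 457 and 532 CPM in WT, with the same division. Of 28 genes 6 were higher, a count that was 2 without either of MIF_1 replicate 1 and MIF_1 replicate 2 or with only the 4 libraries fitted, 3 without either of WT replicate 1 and WT replicate 2 and 16 without MIF_3 replicate 1. The number lower, 0 with all libraries, was 1 without WT replicate 1 and 7 without MIF_3 replicate 2. CHI-B (AT3G12500), a basic chitinase, had 81.2 and 90.9 CPM in MIF_3, 172 and 179 CPM in MIF_1 and 58.4 and 51.5 CPM in WT, a rise of 0.65 ± 0.11 against WT (0.00453), and was lower than in MIF_1 (-1.03, 0.00235), a call that ended without MIF_1 replicate 1 (0.0634). NATA1, which acetylates ornithine in jasmonate-treated leaves, had the largest spread, with 0.711 and 73.3 CPM in MIF_3 seedlings, against 0.150 and 0.542 CPM in WT. Its call (6.78 ± 1.82, 0.0368) rested on replicate 2, since the call ended with only the 4 libraries fitted (0.0888) and without WT replicate 1 (0.175), WT replicate 2 (0.14), MIF_1 replicate 1 (0.0863), MIF_1 replicate 2 (0.0857) or MIF_3 replicate 2 (0.677).

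Heat shock and mitochondrial stress genes moved in both directions. HSFB2A (AT5G62020), a heat shock factor without an activation domain, had 4.38 and 5.64 CPM in MIF_3 seedlings, against 30.4 and 28.9 CPM in WT, and fell by 2.57 ± 0.16 (2.2e-05), and HSFC1 (AT3G24520) fell by 1.92 ± 0.26 (0.00139). HSP17.6A (AT5G12030), a small heat shock protein, had 4.14 and 14.5 CPM in MIF_3 seedlings, against 0.752 and 0.241 CPM in WT, a rise of 4.16 ± 0.68 (0.00389). The heat shock list held 4 higher and 3 lower genes of 17, with the number higher 1 without either of WT replicate 1 and WT replicate 2. AT2G21640, a marker of mitochondrial dysfunction, had 10.6 and 16.4 CPM in MIF_3 seedlings, against 3.01 and 2.89 CPM in WT, a rise of 2.19 ± 0.24 (0.000439), and UGT74E2 (AT1G05680), a glucosyltransferase for indole-3-butyric acid, rose by 1.29 ± 0.24 (0.00792), a call that ended without WT replicate 1 (0.0554). HSP23.6-MITO, a mitochondrial small heat shock protein, had a ratio of pooled counts of 42.2 (11.4 to 353). Of 11 mitochondrial genes 4 were higher and 1 lower, DIC2 (2 without WT replicate 1).

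Mitosis genes were lower, and expansin and xyloglucan enzyme genes moved in both directions. Of 19 mitosis genes 10 were lower and 0 higher (median -0.56), and of 17 DNA replication genes 3 were lower. The number of mitosis genes was 4 without either of WT replicate 1 and MIF_3 replicate 1 and 5 without WT replicate 2, and of replication genes 0 without either of WT replicate 1 and MIF_3 replicate 1 and 1 without either of MIF_1 replicate 1 and MIF_1 replicate 2 or with only the 4 libraries fitted. CYCB1;2 (AT5G06150), a mitotic cyclin, had 29.6 and 30.5 CPM in MIF_3 seedlings, against 57.3 and 49.4 CPM in WT, and fell by 0.83 ± 0.11 (0.00151). AUR2 (AT2G25880), an Aurora kinase, had 12.5 and 13.7 CPM in MIF_3 seedlings, against 22.1 and 21.2 CPM in WT, and fell by 0.72 ± 0.13 (0.0064). The summed shoot meristem markers given above overlapped between the groups. Of 18 expansin and xyloglucan enzyme genes 5 were higher and 4 lower, and the number higher was 3 without WT replicate 2. Of 21 gibberellin genes 2 were higher and 2 lower, beside shares of 5.84% higher and 7.47% lower over all genes tested. The number of gibberellin genes lower was smaller without WT replicate 1. EXPA8 (AT2G40610), an expansin that loosens cell walls, had 4.78 and 8.18 CPM in MIF_3 seedlings, against 47.5 and 34.7 CPM in WT, and fell by 2.67 ± 0.25 (0.000171), whereas the xyloglucan enzyme gene XTH24 (AT4G30270) had 251 and 138 CPM in MIF_3 seedlings, against 36.3 and 68.7 CPM in WT, a rise of 1.89 ± 0.31 (0.00407). RGA (AT2G01570), a DELLA repressor of gibberellin signalling, had 67.4 and 74.9 CPM in MIF_3 seedlings, against 111 and 117 CPM in WT, and fell by 0.68 ± 0.10 (0.00276). GASA1 (AT1G75750), a gibberellin-regulated peptide, had 255 and 223 CPM in MIF_3, 106 and 120.2 CPM in MIF_1 and 99.5 and 96.1 CPM in WT, a rise of 1.29 ± 0.11 against WT (0.000109) and 1.08 ± 0.11 relative to MIF_1 (0.00202). MIF_1 lay close to WT for GASA1, and its MIF_1 difference ended without MIF_1 replicate 1 (0.077).

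Starch genes included a pair that differed from both other groups. GBSS1 (AT1G32900), the granule-bound starch synthase that makes amylose, had 187 and 175 CPM in MIF_3, 291 and 289.5 CPM in MIF_1 and 403 and 388 CPM in WT, and fell by 1.13 ± 0.09 against WT (8.29e-05) and was -0.68 ± 0.09 relative to MIF_1 (0.00656). BAM3 (AT4G17090), a plastid beta-amylase of night starch breakdown, had 112 and 121 CPM in MIF_3, 237 and 201 CPM in MIF_1 and 208 and 224 CPM in WT, and fell by 0.89 ± 0.11 against WT (0.000885) and was -0.91 ± 0.11 relative to MIF_1 (0.00454). The MIF_3 libraries were the lowest of the 3 sets for both genes, and the differences from MIF_1 ended without MIF_1 replicate 1 (0.114) or MIF_1 replicate 2 (0.0854) for GBSS1 and without MIF_1 replicate 1 (0.0916) for BAM3. BAM9 (AT5G18670), a catalytically inactive relative, had 58.8 and 40.0 CPM in MIF_3 seedlings, against 145 and 142 CPM in WT, and fell by 1.54 ± 0.16 (0.000371). GLN1;1 (AT5G37600), a cytosolic glutamine synthetase, had 214 and 181 CPM in MIF_3 seedlings, against 73.5 and 58.6 CPM in WT, a rise of 1.58 ± 0.14 (0.000117). NIR1 (AT2G15620), nitrite reductase, had 360.1 and 353 CPM in MIF_3 seedlings, against 518 and 529 CPM in WT, and fell by 0.56 ± 0.09 (0.00297). Of 20 starch and sugar genes 8 were lower and 3 higher. The number lower was 4 without WT replicate 2 and 5 without either of WT replicate 1 and MIF_3 replicate 1, and the number higher 1 without WT replicate 1.

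Several genes that were higher in MIF_3 than in MIF_1 lay between MIF_1 and WT. AT1G67865, a locus with no gene name in the reference, had 14.2 and 19.7 CPM in MIF_3, 2.48 and 3.12 CPM in MIF_1 and 24.2 and 27.2 CPM in WT, a difference of 2.59 ± 0.21 from MIF_1 (0.000476). AT4G21650, a subtilase family gene, had 23.4 and 24.9 CPM in MIF_3, 5.12 and 6.23 CPM in MIF_1 and 34.5 and 36.5 CPM in WT, a difference of 2.09 ± 0.14 (0.00029). TGG2 (AT5G25980), a myrosinase that cleaves glucosinolates, had 192 and 244 CPM in MIF_3, 88.0 and 94.2 CPM in MIF_1 and 432 and 469.5 CPM in WT, a difference of 1.26 ± 0.12 (0.00182). MIF_1 was the lowest set for all 3, and the MIF_1 difference of TGG2 ended without MIF_1 replicate 1 (0.0822). In the other direction, RLP23, a receptor-like protein that overlaps AT2G32670, had 1.42 and 1.57 CPM in MIF_3, 15.5 and 17.61 CPM in MIF_1 and 0.201 and 0.965 CPM in WT, a difference of -3.46 ± 0.35 (0.00202). ENODL1, an early nodulin-like protein, had 0.987 and 0.564 CPM in MIF_3, 10.3 and 6.98 CPM in MIF_1 and 0.100 and 0.0603 CPM in WT, a difference of -3.47 ± 0.37 (0.00242). MIF_1 was the highest set for both, and these calls ended without MIF_1 replicate 1 (0.0726) or MIF_1 replicate 2 (0.0616) for RLP23 and without MIF_1 replicate 1 (0.0916) for ENODL1. Of 77 named or listed genes that differed from MIF_1, 69 no longer passed without MIF_1 replicate 1 and 56 without MIF_1 replicate 2. ZAT10, ERF104, CBF2, HSPRO2, ACS6, AT4G27657, AT1G67865 and AT4G21650 passed under each of the 14 alternatives.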

How the data were processed

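RNA-seq of whole seedlings was analysed from the authors' deposited table of raw read counts per locus, with 32834 loci and 6 libraries in 3 groups of 2. Per the labels' protocols, total RNA went into poly(A) libraries for a NovaSeq instrument. The submitters' processing notes name fastp, STAR, HTSeq and the build TAIR10. The sources used here give neither versions nor the strand setting of the counting, so reads from a gene and from a locus overlapping it cannot be told apart. Poly(A) selection leaves most plastid RNA behind.

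Counts were fitted with edgeR 4.0.16 in R 4.3.3 on all 6 libraries with a mean per group, TMM factors, filterByExpr (minimum count 10, minimum total 15) and the quasi-likelihood test, with Benjamini-Hochberg adjustment over 20438 genes and a threshold of 0.05. Residual degrees of freedom were 3 and prior degrees of freedom 6.694. The tests were MIF_3 minus WT, MIF_3 minus MIF_1 and, for values set beside these, MIF_1 minus WT. CPM values use TMM-scaled library sizes, and a standard error was taken as the log2 fold change divided by the root of its F statistic. The script was tested on simulated data with known changes. Library totals run from 18262579 to 24698636 counts, and intervals and limits for few counts cover counting error only.

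Gene names, positions and promoters come from RefSeq's TAIR10.1, which has a record for 32548 loci. Of 906 entries in 56 gene lists 896 matched. The genes and lists were chosen with earlier results of these data known. Named genes are the 15 largest rises and 15 largest falls against WT and the 8 largest of each against MIF_1, among genes that passed, averaged a log2 CPM of at least 1 and had groups that did not overlap. They include the 10 most abundant genes that passed in each direction, the 5 members of each list with the smallest p, MORF2 and GUN1. The text prints a selection of these and other members of the lists described. Alternatives were RLE and upper-quartile factors, no low-count filter, a mean count of at least 50, DESeq2 1.42.0, a replicate block, only the 4 libraries compared, removal of organelle and rRNA loci, an adjusted p below 0.01, and each library left out.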

Additional observations from a re-analysis of the deposited data

Results flagged for a closer look

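Each difference below is a log2 fold change of MIF_3 over MIF_1 that passed edgeR's test of that difference at an adjusted p below 0.05, so the transgenic sets moved differently against the same WT libraries. Rapid stress and cold genes were lower in MIF_3: CBF2 (-5.07), ZAT10 (-3.65), ZAT6 (-1.27), ZF2 (-1.35), ERF104 (-2.15), ERF11 (-2.63), ERF6 (-1.87), ERF5 (-1.47), CML24 (-1.32) and PUB23 (-1.02). Defence and ethylene genes were lower as well: WRKY46 (-2.13), WRKY40 (-1.63), WRKY70 (-1.42), WRKY53 (-1.38), WRKY33 (-1.14), PR1 (-3.75), PBS3 (-2.18), CHI-B (-1.03), HSPRO2 (-2.07), RLP23 (-3.46), ENODL1 (-3.47) and ACS6 (-1.92).

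Genes of metabolism, light and other roles were lower too: DIC2 (-2.71), RVE1 (-0.99), HYH (-0.84), BAM3 (-0.91) and GBSS1 (-0.68). Also among them were F6'H1 (-0.94), PAL1 (-0.71), LDOX (-0.92), UF3GT (-0.91) and ENODL1 (-3.47). RTFL12 (-4.22) and the loci AT4G27657 (-3.17) and AT1G35210 (-3.33) were also lower in MIF_3, and in these 3 MIF_1 lay closer to WT than MIF_3 did.

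Higher in MIF_3 were the copper genes CSD2 (1.00) and CCS (0.77), FRO6 (0.90), GASA1 (1.08), KIN1 (1.90) and LTP3 (1.16). The glucosinolate genes TGG2 (1.26), MYB29 (0.86) and TGG1 (0.48), the aquaporin genes PIP1A (0.53) and PIP1C (0.59), and AT1G67865 (2.59) and AT4G21650 (2.09) were higher. FAMT, a farnesoic acid methyltransferase, was higher by 4.17, with 2.37 and 18.1 CPM in MIF_3, 0.378 and 0.748 CPM in MIF_1 and 1.71 and 1.75 CPM in WT, so 1 MIF_3 library was far above the other. AT4G33720, a CAP family protein related to PR1, was higher by 2.47, with 14.5 and 13.1 CPM in MIF_3, 2.94 and 2.04 CPM in MIF_1 and 18.3 and 6.51 CPM in WT. CWINV5 (2.25), which overlaps AT3G13782, MLP168 (2.15) and CYP708A1 (1.72) were higher at levels under 5 CPM. These differences ended with only the 4 libraries fitted (0.0632), with the replicate block (0.0636) and without MIF_1 replicate 1 (0.356), MIF_1 replicate 2 (0.214), WT replicate 1 (0.0602) or WT replicate 2 (0.0592) for TGG1, with the stricter filter (0.0511), with only the 4 libraries fitted (0.0549) and without MIF_1 replicate 1 (0.396), MIF_1 replicate 2 (0.254), MIF_3 replicate 2 (0.13), WT replicate 1 (0.0523) or WT replicate 2 (0.0519) for FAMT and without MIF_1 replicate 1 (0.221) or MIF_1 replicate 2 (0.222) for AT4G33720. They ended without MIF_1 replicate 1 (0.252), MIF_1 replicate 2 (0.128) or MIF_3 replicate 2 (0.0803) for CWINV5, without MIF_1 replicate 1 (0.137) or MIF_1 replicate 2 (0.185) for MLP168 and with the replicate block (0.055) and without MIF_1 replicate 1 (0.251), MIF_1 replicate 2 (0.202) or MIF_3 replicate 1 (0.104) for CYP708A1. The difference of RTFL12 ended without MIF_1 replicate 1 (0.0591), and that of AT1G35210 without MIF_1 replicate 1 (0.0916) or MIF_1 replicate 2 (0.0645).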

How the results depend on the processing

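Counts of genes passing depended on single libraries and on the threshold. With an adjusted p below 0.01, 446 genes were higher and 697 lower in MIF_3 than in WT, 16 higher and 85 lower than in MIF_1, and in MIF_1 against WT 665 higher and 910 lower. With only the 4 libraries compared, 784 were higher in MIF_3 than in WT. Against MIF_1, 242 were higher and 445 lower with no filter, and 273 and 502 in DESeq2. Leaving out 1 library at a time gave 669 to 1105 higher and 838 to 1330 lower in MIF_3 against WT, 2 to 239 higher and 18 to 306 lower in MIF_3 against MIF_1, and 546 to 1797 higher and 776 to 2169 lower in MIF_1 against WT. The other counts over all genes lay within 1.5 times those in the text, and the causes were not tested.

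Samples with the same replicate number did not deviate together. The correlations of their deviations from the group means were -0.036 between MIF_3 and WT, 0.036 between MIF_3 and MIF_1 and -0.042 between MIF_1 and WT, so the numbers were not taken to pair the samples. With the replicate block 997 genes were higher and 1366 lower in MIF_3 than in WT, 75 and 220 against MIF_1, and 1382 and 1745 in MIF_1 against WT. Of 320 named genes 246 passed against WT and 144 of these passed under every alternative run for them. None of these 320 genes changed direction where it passed with all libraries or under the alternative. Other list members printed in the text, such as VSP2 and LOX2, are not among the 320. The calls of jasmonate genes against WT and of iron deficiency regulators against MIF_1 turned with the MIF_3 library left out. The block ended 19 calls, leaving out WT replicate 2 ended 86 and WT replicate 1 ended 75. The filter (minimum count 10) limits what could be tested: 175 of 653 loci with F-box in the product name passed it.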

Other observations

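Glucosinolate genes moved in both directions. MYB29 (AT5G07690), an activator of aliphatic glucosinolate synthesis, had 21.1 and 20.23 CPM in MIF_3, 12.1 and 10.7 CPM in MIF_1 and 34.4 and 34.3 CPM in WT. It fell by 0.73 ± 0.12 against WT (edgeR adjusted p = 0.00361) and was 0.86 relative to MIF_1 (0.00912), so MIF_3 lay between MIF_1 and WT. CYP79F2 (AT1G16400), an enzyme of long-chain aliphatic glucosinolates, rose by 1.04 ± 0.11 (0.000433), with 66.3 and 56.8 CPM in MIF_3 seedlings, against 30.4 and 29.4 CPM in WT. The difference of MYB29 from MIF_1 ended without MIF_1 replicate 1 (0.0916) or MIF_1 replicate 2 (0.106). Of 17 aliphatic glucosinolate genes tested, 2 were higher and 4 lower against WT, and the number lower was 2 without WT replicate 2.

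Of 22 flavonoid and anthocyanin genes 5 were lower in MIF_3 than in MIF_1 and 0 higher, and the number lower was 0 without either of MIF_1 replicate 1 and MIF_1 replicate 2. PAL1 (AT2G37040), phenylalanine ammonia-lyase, had 387 and 358 CPM in MIF_3, 637 and 579.9 CPM in MIF_1 and 413 and 372 CPM in WT, a difference of -0.71 from MIF_1 (0.00912), and did not pass against WT (0.686). LDOX (AT4G22880), an anthocyanin enzyme, had 88.3 and 114 CPM in MIF_3, 174 and 207 CPM in MIF_1 and 117 and 101 CPM in WT, a difference of -0.92 (0.0139), and did not pass against WT (0.686). MIF_1 was above the other 4 libraries for both genes. UF3GT, an anthocyanin glycosyltransferase, differed by -0.91 from MIF_1 (0.0051). The repressor gene MYBL2 (AT1G71030) had 6.47 and 11.9 CPM in MIF_3, 8.61 and 8.31 CPM in MIF_1 and 47.3 and 56.1 CPM in WT, and fell by 2.49 ± 0.23 against WT (0.000186), so it was low in both transgenic sets. The differences from MIF_1 ended without MIF_1 replicate 1 (0.158) or MIF_1 replicate 2 (0.0778) for PAL1, without MIF_1 replicate 1 (0.107) or MIF_1 replicate 2 (0.157) for LDOX and without MIF_1 replicate 1 (0.099) or MIF_1 replicate 2 (0.0768) for UF3GT.

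Several plasma membrane water channels were lower than in WT. PIP2A (AT3G53420) had 1248 and 1172 CPM in MIF_3 seedlings, against 1794 and 1706 CPM in WT, and fell by 0.53 ± 0.09 (0.00403), and PIP2;3 and PIP2;8 fell by 0.58 ± 0.10 (0.00468) and 0.60 ± 0.11 (0.00721). PIP1A and PIP1C did not pass against WT (0.56 and 0.891) and were higher than in MIF_1 (0.53, 0.0188, and 0.59, 0.0171), calls that ended without MIF_1 replicate 1 (0.236) or MIF_1 replicate 2 (0.164) for PIP1A and without MIF_1 replicate 1 (0.218) or MIF_1 replicate 2 (0.164) for PIP1C. Of 13 tested, 2 were higher and 5 were lower, a number that was 3 without either of WT replicate 1 and WT replicate 2 or with only the 4 libraries fitted. Among wax genes, LTP3 (AT5G59320), a lipid transfer protein, had 46.1 and 28.0 CPM in MIF_3, 15.9 and 17.2 CPM in MIF_1 and 18.1 and 17.1 CPM in WT, a rise of 1.07 ± 0.20 against WT (0.0082) and 1.16 relative to MIF_1 (0.0234). Its difference from MIF_1 ended without MIF_1 replicate 1 (0.301) or MIF_1 replicate 2 (0.184).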
